A study of Mus musculus with 24 samples.

Results

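The comparison described here sets macrophages held in human serum against macrophages held in fetal calf serum, in the absence of any bacterial stimulus. Its members are the 6 arrays titled as human or calf serum controls, 3 of each, out of 24 arrays in the series, and they were chosen by these titles alone. All arrays measured RNA of C57BL/6 mouse bone marrow-derived macrophages, which are macrophages grown in culture from marrow cells. After a night in basal medium the cells were washed and given fresh medium for 4 h. The human group received 5% human serum and the calf group 5% fetal calf serum, both heated at 56 °C for 30 min to inactivate complement, and neither received lipopolysaccharide (LPS). The other groups had no serum or 5% mouse serum, and each medium was also run with 25 ng/ml LPS. Each group had 1 array from each of the replicate experiments that the labels name G, H and I, and the test did not pair arrays by these letters. Every serum came from 1 supplier, so species and supplier cannot be told apart. The labels do not say whether the experiments used separate animals, so p-values measure the spread between experiments.

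Calf serum is the usual supplement of cultured macrophages, and the comparison asks how far its replacement by human serum changes resting cells. Several well-known programs respond to the make-up of a medium. Uncharged tRNAs, which build up when amino acids run short, activate the kinase GCN2, and other stresses act through sister kinases. All of these kinases phosphorylate the initiation factor eIF2, which lowers protein synthesis but favours translation of the transcription factor ATF4, whose targets import and make amino acids and charge tRNAs. This chain is called the integrated stress response. Growth factors and lipids in serum act through receptors that switch on immediate early genes within minutes and, through actin and the serum response factor SRF, genes of the cytoskeleton, while FOXO factors are shut off by insulin-type signalling.

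Expression is given as the deposited log2 value, so that a difference of 1 is a doubling, and array values are listed in the order of experiments G, H and I. Differences are human minus calf serum with limma's standard error (SE) and n = 3 arrays per group, and a gene is called where its p, adjusted over all 11785 genes tested, is under 0.05. Medians of the 6 arrays lay between 5.08 and 5.13. Across genes, which are not independent replicates, Pearson's r was 0.986 to 0.990 within the human serum group, 0.988 to 0.991 within the calf serum group and 0.973 to 0.979 between them. All 19 macrophage identity genes on the array were above the level used as a filter (5.08), with a summed level of 15.86 to 15.97 in human and 15.93 to 15.96 in calf serum (log2 of the sum). Markers of other cells were mostly near the bottom of the scale. Exceptions were Pf4 of megakaryocytes (means 12.47 in human and 12.54 in calf serum), endothelial Vwf (8.95 and 9.20) and Prf1 of NK cells (8.41 and 8.39). Of 8 erythroid and megakaryocyte markers 4 were above the filter level, and Ppbp among them was called higher (1.07 ± 0.21). Of 7 T cell markers on the array 0 had a mean above the filter level, and the neutrophil markers had 5 of 8 above it. The summed neutrophil level was lower in human serum, at 9.45 to 10.14 against 10.22 to 11.00, and 1 neutrophil gene was called, S100a8 (-0.83 ± 0.24, adjusted p 0.020), which lost its call in 6 of 9 fits with an array or an experiment left out. The B cell markers had 1 of 6 above the filter level, Cd79b, which was lower in human serum (-1.57 ± 0.24). The part of such cells in any result was not tested, and in bulk samples fewer cells of a type and less RNA per cell cannot be told apart.

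Human and calf serum left resting macrophages with widely different expression. Of 11785 genes 1731 (14.7%) were called, 837 higher in human serum (7.1%) and 894 lower (7.59%). Most differences were small, with a median size among called genes of 0.63, but 173 genes were higher and 141 lower by more than 1, and 34 higher and 9 lower by more than 2. The difference had the same sign in all 3 experiments for 1718 of the 1731. The 3 values of one serum lay wholly apart from those of the other in 1665 of them, and in 29% of all genes tested. The counts moved with the experiments used. Without experiment G 548 genes were higher and 539 lower, without H the lower genes numbered 553, and without I 494 were higher and 358 lower. The calf serum control of experiment H carries the array stamp of experiment G in its label, and without this array the counts were 734 and 622.

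**Figure D1:**
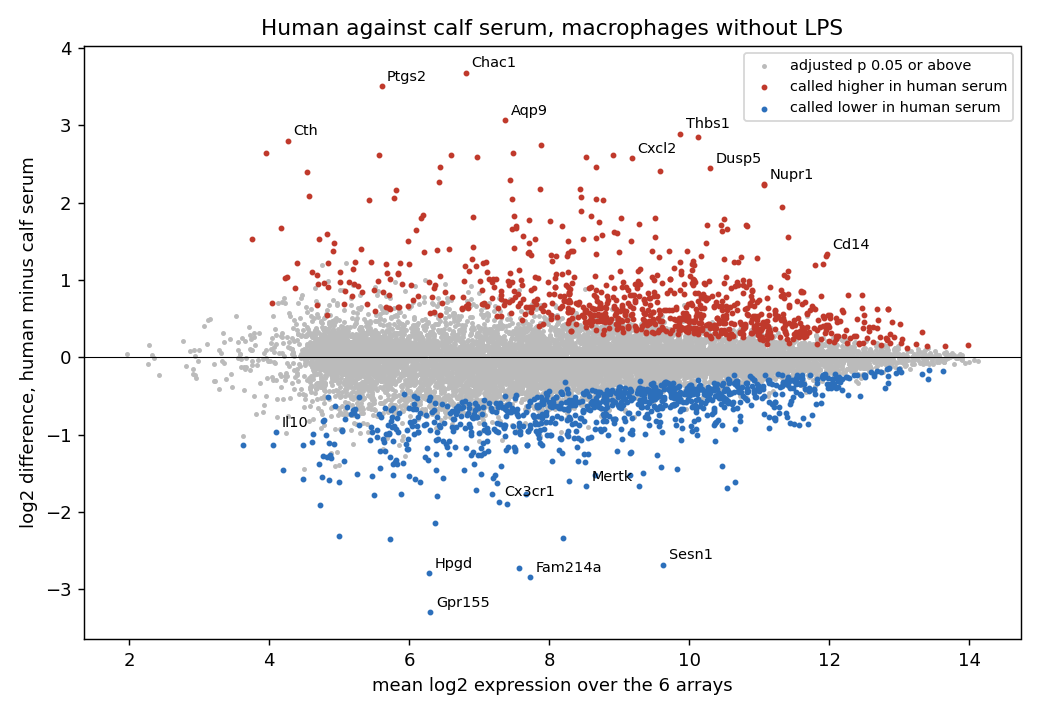
Each point is 1 of 11785 genes, with its mean log2 expression over the 6 arrays on the horizontal axis and the log2 difference, human minus calf serum, on the vertical axis; red points were called higher and blue points lower. The called genes lie on both sides of 0 at all levels of expression, from Chac1 at 3.68 to Gpr155 at -3.30.

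The highest difference of all belonged to the integrated stress response. Chac1, an enzyme that degrades glutathione and a well-known ATF4 target, read 8.22, 8.95 and 8.79 in human serum and 4.02, 5.28 and 5.62 in calf serum. The groups were far apart. The difference was 3.68 ± 0.37 (12.8-fold, adjusted p 1.87e-07), with the calf mean below the filter level, where background shapes the value. Nupr1, a small stress-induced chromatin protein, read 12.20, 12.26 and 12.09 against 10.02, 10.08 and 9.74. The sera did not overlap, and the gene differed by 2.24 ± 0.09 (4.72-fold, adjusted p 3.2e-14). Jdp2, a bZIP transcription factor of the AP-1 group, read 10.14, 10.28 and 10.25 against 7.51, 7.79 and 7.50. Its 3 values were tight within each serum and the difference was 2.62 ± 0.10 (adjusted p 9.25e-15). The other probe set of Jdp2 was not called, and over the other fits its lowest difference was 1.40, still called. Asns, the asparagine synthetase whose promoter first defined the amino acid response, read 11.83, 11.62 and 11.55 against 9.98, 10.31 and 9.63. It was higher in human serum by 1.69 ± 0.13 (3.23-fold, adjusted p 1.8e-09).

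The list for this response was written with earlier results of these data known. Its 23 tested genes were all called higher in human serum, against 7.1% of all genes. All 23 had groups that did not overlap, against 29%. Their median difference was 1.37 with a range of 0.45 to 3.68, where the median of all genes was -0.03. With the most variable probe set of each gene the lowest difference in the list was -0.12. Genes that make amino acids and one-carbon units were among the 23. Cth, which makes cysteine, differed by 2.80 ± 0.34, from a calf mean below the filter level. Serine synthesis was represented by Phgdh (1.29 ± 0.24), Psat1 (1.71 ± 0.14) and Psph (1.32 ± 0.14), the successive enzymes of that pathway, and all were called. The mitochondrial folate enzyme gene Mthfd2 differed by 1.71 ± 0.14 and Shmt2, which feeds it, by 1.37 ± 0.20. The regulators of the response are among them as well. Ddit3, which encodes the stress factor CHOP, read 12.67, 12.57 and 12.56 against 11.50, 11.20 and 11.18 and differed by 1.31 ± 0.11. Trib3, a pseudokinase that restrains ATF4 output, differed by 1.95 ± 0.24, and Sesn2, a leucine sensor that restrains mTORC1, by 1.60 ± 0.25. Atf4 itself, which is regulated mainly through translation, read 12.29, 11.84 and 11.96 against 11.69, 10.96 and 11.61 and differed by 0.61 ± 0.16 (adjusted p 0.00863). It lost its call without human replicate G (adjusted p 0.0609), calf replicate H (0.0815) or experiment I (0.0521). Atf3, a stress factor counted here with the immediate early genes and not in this list, was called lower in human serum (-0.35).

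Promoters were searched to show what genes that were higher together in human serum have near their start sites. The 250 bases upstream of each start in RefSeq's GRCm38.p6 table were searched on both strands for TGATGNAA. TGATGNAA is the core of the composite element bound by C/EBP and ATF4. This motif was chosen after the data had been seen, and TGATGNAAT, searched as well, contains it. It was found in 3.45% of 32851 promoters and in 2.51% of the promoters of 9572 tested genes. Of 21 called genes of the integrated stress response whose promoter was listed 5 held it, Chac1, Nupr1, Asns, Vldlr and Jdp2. The list was written from general knowledge, so this share is a description. Atf3, called lower in human serum, held the motif as well. Of 6 listed promoters of amino acid transporter genes called higher, 1 held the motif, that of Slc7a11. The 5 stretches of 100 bases given here belong to members that carry the result and to the cystine transporter gene Slc7a11. They lie at chr2:119351003-119351102 on the plus strand for Chac1, chr7:126625527-126625626 on the minus strand for Nupr1, chr12:85599316-85599415 on the plus strand for Jdp2, chr6:7693210-7693309 on the minus strand for Asns and chr3:50443626-50443725 on the minus strand for Slc7a11. Each is written 5′ to 3′ along its gene, with matches in capitals.

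Chac1: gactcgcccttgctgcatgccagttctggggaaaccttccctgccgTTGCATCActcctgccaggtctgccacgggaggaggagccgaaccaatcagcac
Nupr1: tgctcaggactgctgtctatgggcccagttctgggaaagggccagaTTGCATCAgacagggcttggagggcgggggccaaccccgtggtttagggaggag
Jdp2: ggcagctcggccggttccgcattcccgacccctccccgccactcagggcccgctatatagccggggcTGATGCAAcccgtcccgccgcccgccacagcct
Asns: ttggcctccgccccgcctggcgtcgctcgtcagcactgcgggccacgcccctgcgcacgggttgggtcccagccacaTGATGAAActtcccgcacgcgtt
Slc7a11: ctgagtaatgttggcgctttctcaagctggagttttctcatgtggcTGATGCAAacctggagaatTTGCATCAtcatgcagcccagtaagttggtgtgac

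The letters TTGCATCA, the reverse complement of TGATGCAA, stand in the Chac1 and Nupr1 stretches, and Slc7a11 holds a match on each strand. A match is a description of these letters and not a measured binding site. Of the 21 promoters 1, that of Nupr1, held the longer TGATGNAAT, which is in 0.816% of all promoters.

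Amino acid import showed the same direction in most of its genes. Of 15 tested amino acid transporters 10 were higher in human serum and 1 lower (73.3% called, against 14.7% of all genes). The median difference was 0.82. Slc1a4, a carrier of alanine, serine and cysteine, read 11.58, 11.53 and 11.53 against 8.34, 9.41 and 8.36. All human values stood above all calf values, by 2.84 ± 0.26 on average (7.18-fold, adjusted p 3.95e-08). Slc7a5, the light chain of the large neutral amino acid exchanger LAT1, read 9.93, 9.94 and 9.83 against 7.31, 7.86 and 7.14 and differed by 2.46 ± 0.19. Slc7a11, which brings in cystine for glutathione, read 9.04, 8.95 and 8.88 against 6.91, 6.64 and 6.80. The groups were again separate, with a difference of 2.18 ± 0.18 (adjusted p 7.76e-09). Slc7a1, a carrier of arginine and lysine, differed by 1.55 ± 0.13. The lower gene was Slc36a1, a proton-coupled carrier of small amino acids on lysosomes, at -0.87 ± 0.22 (adjusted p 0.00791). It had no call without calf replicate G, experiment G or experiment I.

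Of 18 cytosolic aminoacyl-tRNA synthetases, the enzymes that charge tRNAs, 12 were higher in human serum and 0 lower. That is 66.7% called, against 14.7% of all genes, and the median difference was 0.72. Yars, for tyrosine, read 9.06, 8.97 and 8.97 against 7.35, 7.73 and 7.79. No value of one serum reached those of the other, and the difference was 1.38 ± 0.13 (adjusted p 4.81e-08). Iars, for isoleucine, differed by 1.23 ± 0.14, Cars, for cysteine, by 0.94 ± 0.15 and Tars, for threonine, by 0.94 ± 0.12. The promoters of 7 of the 12 were in the table, and those of Aars, Gars and Tars held TGATGNAA. The stretch of Aars, which charges alanine and differed by 0.92 ± 0.10, is shown as an example from this class. It lies at chr8:111033684-111033783 on the plus strand, with the match in capitals.

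Aars: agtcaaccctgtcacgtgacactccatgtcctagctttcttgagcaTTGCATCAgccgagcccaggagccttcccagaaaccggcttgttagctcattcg

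The endoplasmic reticulum branch of stress did not follow as a group. Of 19 unfolded protein response genes 4 were higher, Herpud1, Ern1, Sel1l and Atf6, and 2 lower, Manf (-0.33) and Pdia6 (-0.42). Of this list 31.6% were called, against 14.7% of all genes, with a median difference of -0.04. The chaperone gene Hspa5, its usual marker, read 12.73, 12.79 and 12.86 in human and 12.85, 12.59 and 12.79 in calf serum. These values overlapped and were not called different (0.05 ± 0.05, adjusted p 0.617). Herpud1, a degradation factor that also responds to ATF4, differed by 1.04 ± 0.22 (adjusted p 0.00149), the sensor gene Ern1 by 0.96, Sel1l by 0.34 and Atf6 by 0.26. Of the 9 fits with an array or an experiment left out, Atf6 lost its call in 8, Manf in 7 and Sel1l and Pdia6 in 6 each, and Herpud1 lost it without experiment I (adjusted p 0.0698). Over all other fits the list had 1 to 4 genes higher and 0 to 2 lower.

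The levels without serum place these genes on a common scale. For Chac1 the mean was 7.64 ± 0.35 (SD, n = 3) without serum and 7.51 ± 0.26 in mouse serum, nearer to human than to calf serum. Nupr1 averaged 11.86 ± 0.09 without serum and 11.25 ± 0.15 in mouse serum, and Slc1a4 11.00 ± 0.19 and 10.47 ± 0.47, again between the human and calf levels. Over the 23 stress response genes the median difference from no serum was 0.35 for human serum and -0.95 for calf serum. By the same fit 8 of the 23 were higher in human serum than without serum (4.73% of all genes were) and 19 were lower in calf serum than without serum (2.27% of all genes). Mouse serum exceeded calf serum in 13 of the 23 (5.07% of all genes). These comparisons share arrays with one another and with the comparison of the sera, so they restate the levels and are not separate evidence.

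**Figure D2:**
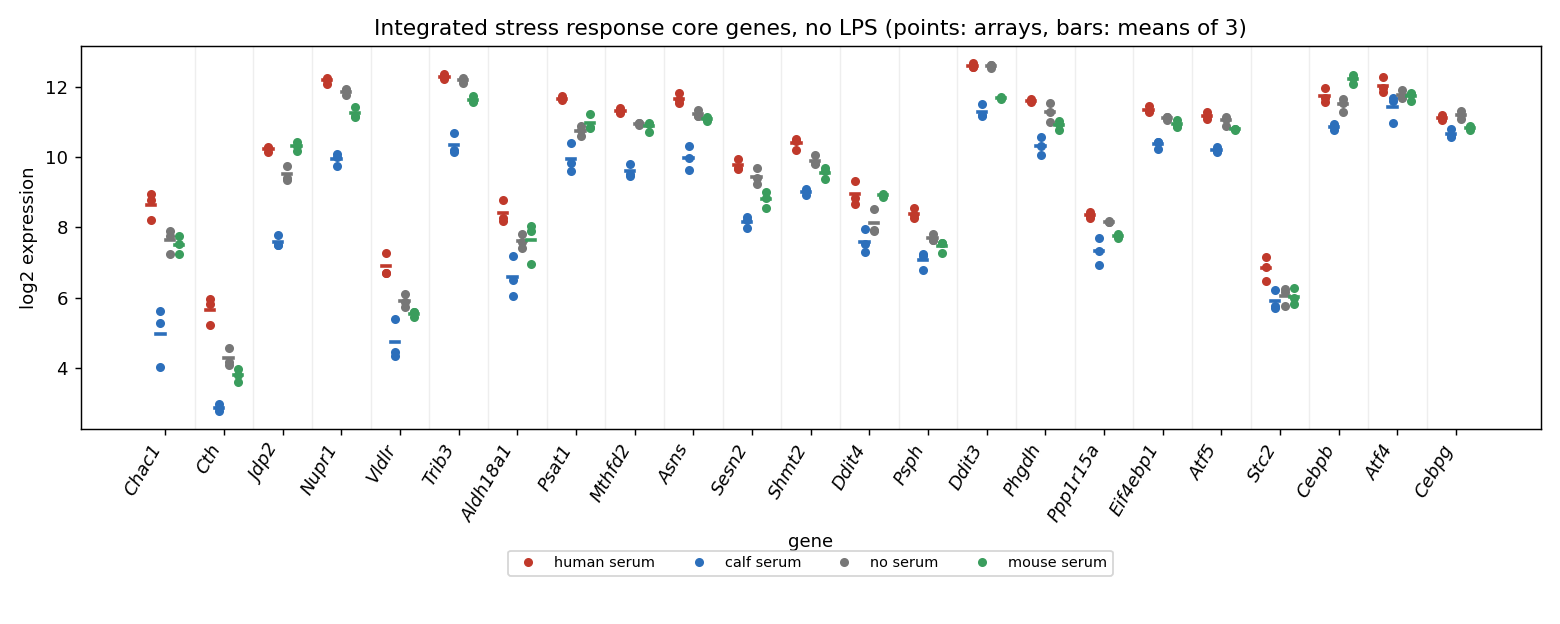
Log2 expression of the 23 tested integrated stress response genes in unstimulated cells, ordered by the difference between human and calf serum; each point is 1 array, bars are means of 3, and colours mark human, calf and mouse serum and no serum. For all 23 genes the human serum points lie above the calf serum points.

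Immediate early genes and the brakes on growth signalling were higher in human serum in part. Of 26 immediate early transcription factors 13 were higher and 3 lower (61.5% called, against 14.7% of all genes). Fosl1, an AP-1 subunit, read 7.34, 8.02 and 8.10 against 6.03, 5.72 and 6.26. The ranges were apart, and the difference was 1.81 ± 0.28 (adjusted p 6.24e-05). Maff, a small Maf factor, differed by 1.70 ± 0.14, and Nr4a1, an orphan nuclear receptor, by 1.40 ± 0.30. Fos read 11.96, 12.18 and 12.13 against 11.33, 11.46 and 11.58 and differed by 0.64 ± 0.16 (adjusted p 0.0091). Fos had no call without experiment H (0.0793) or I (0.0842). The 3 lower genes were Klf2, a factor that restrains activation (-0.70 ± 0.19), the stress and feedback factor Atf3 (-0.35 ± 0.06) and Jund (-0.19 ± 0.06). Of the same 9 fits Klf2 lost its call in 4 and Jund in 6. Without calf replicate G or without experiment G the lower genes of this list numbered 1.

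Negative feedback on MAP kinases was represented by 19 tested genes. Of these 9 were higher and 0 lower (47.4% called, against 14.7% of all genes). Dusp5, the nuclear phosphatase that inactivates ERK, read 11.47, 11.59 and 11.50 in human and 8.84, 9.10 and 9.29 in calf serum. Its levels did not come close to overlapping, and the difference was 2.44 ± 0.12 (5.44-fold, adjusted p 8.17e-13). Phlda1, an ERK-responsive gene, differed by 2.07 ± 0.20, Errfi1, which inhibits the EGF receptor, by 1.75 ± 0.12 and Dusp4, another ERK phosphatase, by 1.31 ± 0.12. For Dusp5 the mean was 8.87 ± 0.19 without serum and 11.37 ± 0.06 in mouse serum, so that calf serum lay with no serum and human with mouse serum. Calf minus no serum was 0.21 (adjusted p 0.548) and human minus no serum 2.65.

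The largest difference among the cytoskeletal genes tied to SRF was that of Thbs1, the matrix protein thrombospondin 1. It read 11.38, 11.29 and 11.29 against 8.14, 8.31 and 8.82. No calf value came within reach of the human ones, and the difference was 2.89 ± 0.16 (7.43-fold, adjusted p 2.2e-11). The mean was 8.25 ± 0.12 without serum and 11.46 ± 0.10 in mouse serum. Of 22 tested genes of this list 8 were higher and 0 lower (36.4% called, against 14.7% of all genes). The median was 0.25, but the differences other than that of Thbs1 were under 1. Zyx, an adhesion protein that senses tension, differed by 0.76 ± 0.11, Srf itself by 0.70 ± 0.12 and Cnn2, an actin-binding calponin, by 0.57 ± 0.16. Actg1, cytoplasmic actin, differed by only 0.14 ± 0.03. Cnn2 and Actg1 are named for their promoters, and Cnn2 lost its call in 7 of the fits with an array or an experiment left out. Without experiment H the higher genes of this list numbered 4 and without experiment I they numbered 3.

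The CArG box, the motif that SRF binds, was found in 1.47% of all promoters by the same search. It was in 3 of the 7 promoters available for called genes of the SRF list, those of Actg1, Cnn2 and Srf. That list was written from general knowledge of SRF targets, which can favour this motif, so the share is a description. Of 9 promoters of the higher immediate early genes 1 held the motif, again that of Srf. Dusp5 held it as well, and was 1 of 6 in the feedback list, while 0 of 21 integrated stress response promoters had it. The 4 stretches are given because they hold the motif in genes that share a direction, with matches in capitals. They lie at chr17:46556190-46556289 on the minus strand for Srf, chr19:53529018-53529117 on the plus strand for Dusp5, chr11:120348531-120348630 on the minus strand for Actg1 and chr10:79988499-79988598 on the plus strand for Cnn2.

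Srf: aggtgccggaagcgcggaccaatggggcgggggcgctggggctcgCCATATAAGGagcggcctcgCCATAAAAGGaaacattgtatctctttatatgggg
Dusp5: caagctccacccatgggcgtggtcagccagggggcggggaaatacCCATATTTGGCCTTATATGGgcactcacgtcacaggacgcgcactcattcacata
Actg1: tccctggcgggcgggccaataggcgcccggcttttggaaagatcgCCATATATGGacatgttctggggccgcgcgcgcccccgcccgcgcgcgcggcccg
Cnn2: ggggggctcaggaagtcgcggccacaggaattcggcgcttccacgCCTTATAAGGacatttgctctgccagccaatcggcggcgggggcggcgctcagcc

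Srf and Dusp5 each hold 2 matches, side by side in Dusp5. The cyclic AMP element TGACGTCA was in 1.55% of all promoters and in 2.93% of those of the 9572 tested genes. It was found in 1 of 9 promoters of the higher immediate early genes (Maff), in 2 of 6 of the higher feedback genes (Dusp1 and Errfi1), in 1 of 21 of the stress response genes (Ppp1r15a) and in 0 of 7 of the SRF list.

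Secreted growth factors and their receptors followed for some members. Of 18 tested 7 were higher and 1 lower (44.4% called, against 14.7% of all genes), with a median of 0.09. The lower one was Hgf (-0.97 ± 0.26), which had no call in 5 of the fits with an array or an experiment left out. Met, the receptor for hepatocyte growth factor, read 9.41, 9.72 and 9.48 against 7.13, 7.76 and 7.17. The groups were separate by 2.18 ± 0.14 on average (adjusted p 1.53e-10). Vegfa, the main angiogenic factor, differed by 1.83 ± 0.17, Hbegf, an EGF receptor ligand, by 1.65 ± 0.24 and Pdgfa by 1.06 ± 0.13. Inhba, which encodes the activin A subunit, read 8.78, 8.92 and 8.70 against 5.98, 6.56 and 5.92. Its difference of 2.65 ± 0.16 (6.26-fold, adjusted p 8.87e-11) put it among the 15 largest. The other probe set of Inhba was not called, and over the other fits its lowest difference was 1.26, still called. The BMP target Id3 was not called, and read 9.67, 9.55 and 9.66 in human and 9.64, 9.68 and 9.94 in calf serum (-0.13 ± 0.17, adjusted p 0.700). Both sera were far above the 7.15 ± 0.13 measured without serum. Of 15 TGF-beta and BMP genes 1 was higher, Pmepa1 (0.79 ± 0.13), and 4 were lower (33.3% called, against 14.7% of all genes). The lower ones were led by Bambi, a decoy receptor (-1.16 ± 0.24), and the receptor genes Tgfbr2 (-0.69 ± 0.16) and Tgfbr1 (-0.58 ± 0.08). Without experiment G or I the lower ones numbered 2 and Tgfbr2 had no call.

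A limited set of inflammatory genes was higher in human serum although no LPS had been added. Ptgs2, the inducible cyclooxygenase that starts prostaglandin synthesis, read 7.44, 7.36 and 7.28 against 2.79, 4.63 and 4.12. All calf values were under the filter level, so the 3.51 ± 0.28 (11.4-fold, adjusted p 5.01e-09) depends on how background was removed. Ptges, which completes prostaglandin E2, differed by 1.50 ± 0.27. Hpgd, which inactivates prostaglandins, went the other way, with 4.87, 5.65 and 4.14 in human and 7.46, 7.74 and 7.84 in calf serum. The groups did not overlap, and the difference was -2.79 ± 0.32 (adjusted p 8.96e-07), from a human mean below the filter level. The prostaglandin E2 receptor genes differed in sign, with Ptger2 at 0.81 ± 0.22 (adjusted p 0.0135) and Ptger4 at -0.88 ± 0.10. Ptger2 had no call without human replicate I (adjusted p 0.0792), calf replicate I (0.0657), experiment H (0.0673) or experiment I (0.58, adjusted p 0.252).

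Chemokines of the neutrophil-attracting CXC group stood out. Cxcl2 read 10.33, 10.44 and 10.65 in human and 7.72, 7.92 and 8.05 in calf serum. These ranges were far apart, with a difference of 2.57 ± 0.11 (5.95-fold, adjusted p 6.63e-14). Cxcl1 differed by 2.03 ± 0.15 and Cxcl3 by 2.64 ± 0.29, the latter with its calf mean below the filter level. Of 22 chemokines 5 were higher and 1 lower (27.3% called, against 14.7% of all genes). Besides Cxcl1, Cxcl2 and Cxcl3 the higher ones were Ppbp (1.07 ± 0.21) and Ccl9 (0.33 ± 0.04). The lower one was Ccl4, which attracts monocytes and T cells (-0.74 ± 0.12). The lower ones numbered 3 without human replicate H. Ccl2, the main monocyte attractant, read 7.57, 8.23 and 7.87 against 7.78, 7.82 and 8.22. The values overlapped, and the 95% interval of the difference ran from -0.44 to 0.34.

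Of 17 inflammatory cytokines 4 were higher and 2 lower (35.3% called, against 14.7% of all genes). Il1rn, the antagonist of the IL-1 receptor, read 12.15, 12.20 and 12.18 against 10.05, 9.84 and 9.95. The ranges were apart, and the difference was 2.23 ± 0.08 (4.70-fold, adjusted p 9.25e-15). Il1b differed by 1.77 ± 0.16, Tnfsf9, a T cell costimulator, by 1.05 ± 0.16 and Tnf, which read 8.27, 8.25 and 8.10 against 7.46, 7.48 and 7.43, by 0.75 ± 0.09 (adjusted p 2.17e-06). Il10, an anti-inflammatory cytokine, was lower at 3.70, 3.40 and 3.73 against 4.63, 4.71 and 4.40. All 6 values lay below the filter level, so the difference of -0.97 ± 0.22 (adjusted p 0.00307) is one between values close to background, and it had no call without experiment H (0.0805). Il6 stayed at the bottom of the scale, at 2.37, 2.09 and 2.21 against 2.14, 2.66 and 2.11, and was not called. The other lower cytokine was Il15, a growth factor of natural killer cells (-0.60 ± 0.13), which had no call in the 6 arrays alone (adjusted p 0.0888) or without experiment I (0.106). Without experiment H or without experiment I the lower cytokines numbered 1.

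Feedback on NF-kappaB, a factor that can drive inflammatory genes and whose activity was not measured here, was higher in 11 of 21 tested genes (7.1% of all genes) and lower in 0. Nfkbiz, an atypical inhibitor protein that it induces, differed by 1.03 ± 0.14, the RNase gene Zc3h12a by 1.03 ± 0.17, Nfkbie by 0.98 ± 0.15 and the IL-1 decoy receptor gene Il1r2 by 1.11 ± 0.22, with a calf mean below the filter level. The genes that sense LPS were divided. Cd14, the coreceptor that hands LPS on, read 12.52, 12.73 and 12.63 against 11.17, 11.35 and 11.37. The groups were separate, with a difference of 1.33 ± 0.08 (2.51-fold, adjusted p 2.81e-11). Tlr4, the receptor itself, read 11.41, 11.28 and 11.25 against 11.28, 11.32 and 11.29, and the 95% interval of its difference was -0.13 to 0.17. Tlr2, for bacterial lipopeptides, was higher by 0.76 ± 0.12, while Tlr1, its partner, read 6.86, 6.35 and 6.11 against 7.91, 8.37 and 7.91 and was lower (-1.62 ± 0.17, adjusted p 2.82e-07). The endosomal receptors for nucleic acids Tlr8 (-1.05 ± 0.26), Tlr3 (-0.87 ± 0.13) and Tlr7 (-0.79 ± 0.15) were also lower. With the most variable probe set of each gene Tlr3 (-0.58, adjusted p 0.369) and Tlr7 (0.017, adjusted p 0.99) were not called. Over the 21 genes of the list 3 were higher and 7 lower (47.6% called, against 14.7% of all genes). The lower ones numbered 4 without human replicate I or without experiment I, when Tlr8 had no call.

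**Figure D3:**
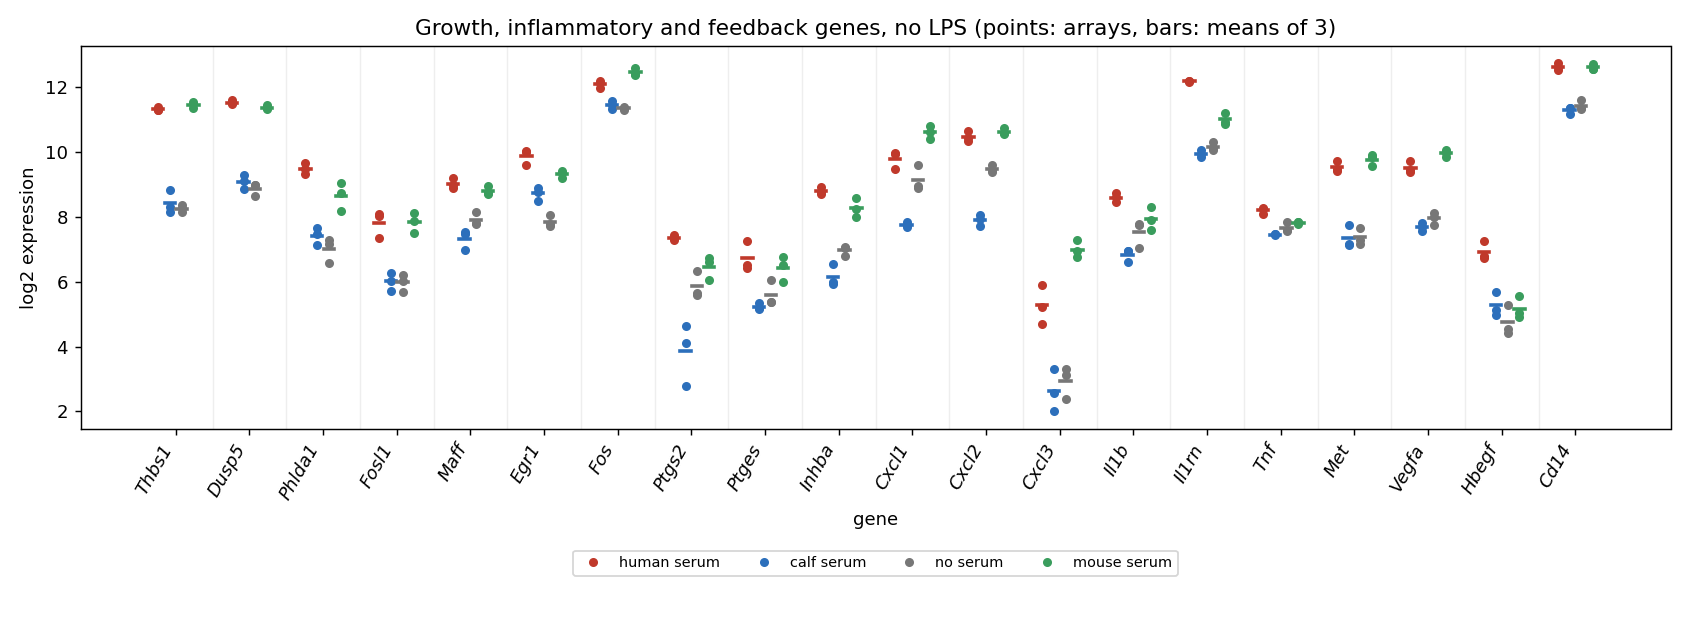
Log2 expression of growth, inflammatory and feedback genes in unstimulated cells; each point is 1 array, bars are means of 3, and colours mark the 4 media. In all 20 genes shown the human serum points lie above the calf serum points, from wide gaps for Thbs1 (2.89) and Ptgs2 (3.51) to narrow ones for Fos (0.64) and Tnf (0.75).

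Among the remaining genes with the largest positive differences were carriers and lipid enzymes. Aqp9, a channel for glycerol and water, read 8.82, 9.11 and 8.79 against 5.68, 6.38 and 5.45. The ranges were far apart and the difference was 3.07 ± 0.22 (8.38-fold, adjusted p 1.02e-09). Gpat3, which starts triglyceride synthesis from glycerol phosphate, differed by 2.75 ± 0.26. Olr1, a scavenger receptor for oxidised lipoproteins, differed by 2.40 ± 0.28 from a calf mean below the filter level, and Hilpda, which slows the breakdown of stored lipid, by 2.41 ± 0.14. Of 16 genes of lipid uptake and storage 5 were higher and 1 lower, Lipa (-0.22). In this list 37.5% were called, against 14.7% of all genes, with a median of -0.04. The others among the 15 largest included B3gnt5, a glycosyltransferase of glycolipid synthesis (2.62 ± 0.24), the adaptor gene Cass4 (2.59 ± 0.45) and Abtb2 (2.59 ± 0.18). The matrix protein gene Matn2 was another (2.62 ± 0.43), with a calf mean below the filter level. Slc39a14, a zinc and iron importer, differed by 1.62 ± 0.13 and the glucose transporter gene Slc2a1 by 1.20 ± 0.12. Of 22 genes of glycolysis and hypoxia 7 were higher and 0 lower (31.8% called, against 14.7% of all genes). With the most variable probe set of each gene, however, 3 were higher. The collagenase gene Mmp13 read 11.05, 11.21 and 11.05 in human and 9.44, 9.33 and 9.41 in calf serum. It averaged 9.83 ± 0.23 without serum and 9.46 ± 0.26 in mouse serum, so the human level stood above the other 3 media, and human minus mouse was 1.65 ± 0.12 (adjusted p 8.6e-09).

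The genes lower in human serum had other functions. Gpr155, a lysosomal cholesterol sensor, read 4.72, 5.37 and 3.87 in human and 7.90, 7.59 and 8.36 in calf serum. The groups were apart by 3.30 ± 0.39 on average, lower in human serum (-3.30, 9.83-fold, adjusted p 1.89e-06), with a human mean below the filter level. Fam214a differed by -2.85 ± 0.28 and Rasgrp3, an activator of Ras-type GTPases, by -2.73 ± 0.32. Sesn1, a stress-induced restrainer of mTORC1, read 8.44, 8.06 and 8.37 against 10.93, 11.02 and 10.95. The sera did not overlap (-2.68 ± 0.31, adjusted p 1.22e-06), in contrast to its relative Sesn2 above. Its mean was 10.56 ± 0.15 without serum and 8.50 ± 0.26 in mouse serum, so calf serum lay near no serum and human near mouse serum. The motor protein gene Kif5c differed by -2.35 ± 0.26, from a human mean below the filter level, and the scaffold gene Frmd4b by -2.33 ± 0.18. Like them, Zfp395 (-2.15 ± 0.24), the lysosomal carrier gene Slc46a3 (-1.90 ± 0.27) and Zfyve28 (-1.79 ± 0.27) were among the 15 largest negative differences. Frmd4b was not called when its most variable probe set was used (-1.01, adjusted p 0.33). The other probe set of Kif5c was not called, and over the other fits its difference was smallest in size at -1.37, still called.

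Sesn1 belongs to a list of genes known to be raised by FOXO factors or fasting, in which 8 of 23 tested genes were lower (7.59% of all genes were) and 0 higher, with a median of -0.35. Sesn3 differed by -1.07 ± 0.24, the transcription factor gene Foxo3 by -0.73 ± 0.18 and Ypel3 by -0.67 ± 0.18, and each lost its call without at least 1 of the experiments. The lower genes of the list numbered 5 without calf replicate H, calf replicate I or experiment G, and 3 without experiment H or I.

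G protein-coupled receptors, through which macrophages sense nucleotides, lipids and chemokines, had 10 of 25 tested genes lower and 6 higher. In this list 64% were called, against 14.7% of all genes. Gpr34, a lysophosphatidylserine receptor, read 4.10, 3.78 and 3.66 against 6.14, 6.16 and 6.16. The calf values agreed closely and the difference was -2.31 ± 0.26 (adjusted p 6.56e-07), from a human level below the filter. Cx3cr1, the fractalkine receptor, read 6.39, 6.16 and 6.49 against 8.65, 7.73 and 8.25. The groups were separate (-1.87 ± 0.27, adjusted p 3.19e-05). Its mean was 6.88 ± 0.56 without serum and 7.54 ± 0.29 in mouse serum, and calf minus no serum was 1.33 (adjusted p 0.00487), so here calf serum stood above the medium without serum. Ccr2, the receptor for Ccl2, differed by -1.52 ± 0.17 and the nucleotide receptor gene P2ry1 by -1.61 ± 0.28. The higher ones were led by Lpar1, a lysophosphatidic acid receptor (2.27 ± 0.22), and Gpr84, a receptor for medium-chain fatty acids (2.05 ± 0.17).

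Among macrophage identity genes 5 of 19 were lower and 2 higher (36.8% called, against 14.7% of all genes), with a median of -0.13. Mertk, which recognises dying cells, read 7.17, 8.09 and 7.82 against 9.22, 9.43 and 9.43. The ranges were apart and the difference was -1.67 ± 0.15 (adjusted p 2.86e-08). Cebpa, a transcription factor of myeloid differentiation, read 9.82, 9.79 and 9.66 against 11.16, 11.16 and 11.18 and was lower by 1.41 ± 0.17 (-1.41), whereas its relative Cebpb, which also counts among the stress genes, was higher (0.87 ± 0.11). Maf differed by -0.86 ± 0.08. Slc40a1, the iron exporter ferroportin, read 8.60, 8.18 and 8.58 against 10.12, 10.20 and 10.01. The sera did not overlap (-1.66 ± 0.20, adjusted p 2.7e-06), and Hmox1, which frees iron from haem, was lower by a smaller amount (-0.42 ± 0.10).

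**Figure D4:**
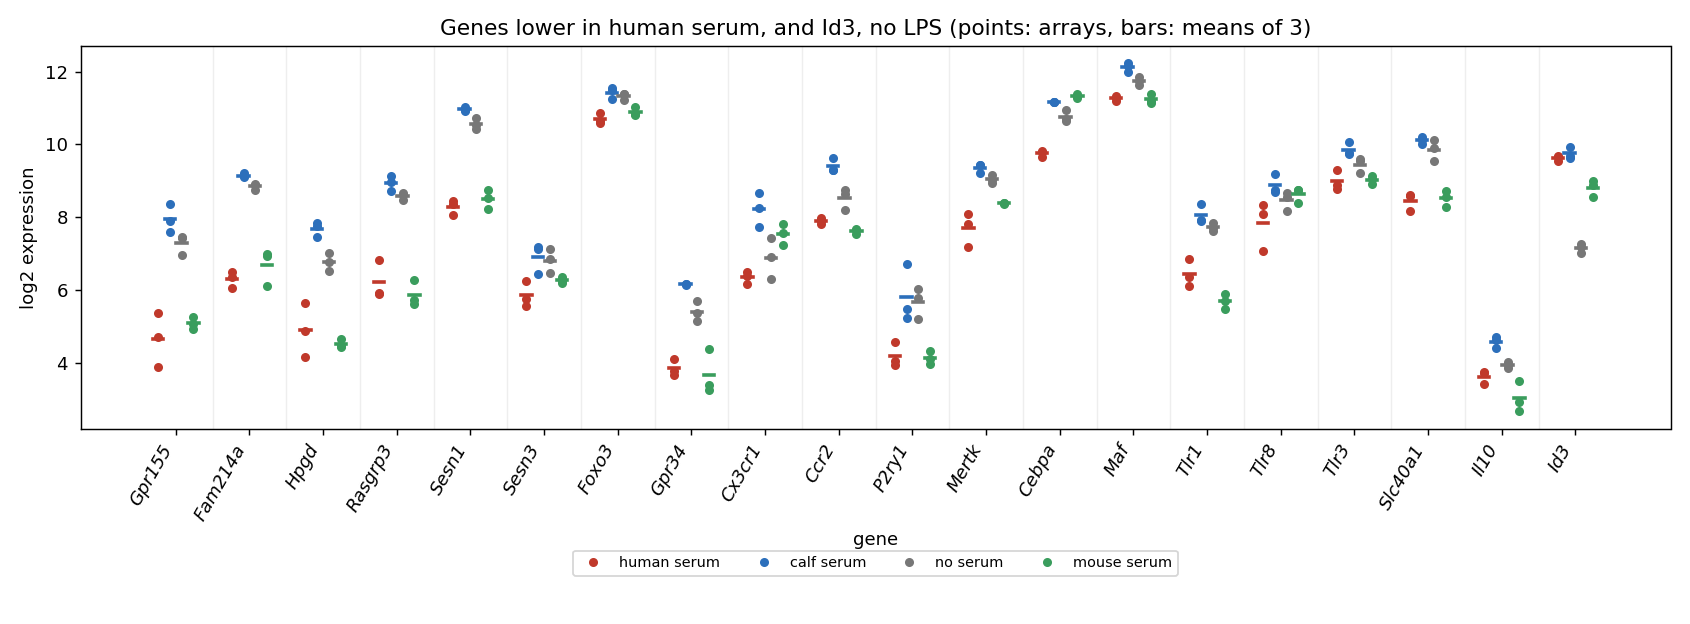
Log2 expression of 19 genes lower in human serum and of Id3, which was not called, in unstimulated cells; each point is 1 array, bars are means of 3, and colours mark the 4 media. For the 19 genes the human serum points lie below the calf serum points, while those of Id3 overlap.

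Several groups had few calls or calls that depended on the fit. Of lysosome and autophagy genes 4.17% were called, of cholesterol genes 25% and of interferon response genes 14.3%, against 14.7% of all genes. Lysosome and autophagy genes had 1 of 24 higher, the receptor for selective autophagy Sqstm1 (0.38 ± 0.05), and 0 lower, with a median of -0.03. Cholesterol synthesis and uptake had 4 of 20 lower and 1 higher, led by Dhcr7, the last enzyme of synthesis (-0.86 ± 0.19), and Stard4, a sterol carrier (-0.82 ± 0.21), and 2 were lower without experiment I. With the most variable probe set of each gene 1 was lower and Stard4 was not called (-0.21, adjusted p 0.822), and 0 of its 2 other probe sets were called. Stard4 also had no call without experiment I (adjusted p 0.139) or with the mean of its probe sets (0.0763). The higher one, Msmo1 (0.50 ± 0.16), had no call in 8 of the fits with an array or an experiment left out. Abca1, which exports cholesterol, was not called (0.05 ± 0.09), and neither were the glucocorticoid target Fkbp5 (0.31 ± 0.18, adjusted p 0.299) and the inhibitory IgG receptor gene Fcgr2b (-0.33 ± 0.16, adjusted p 0.188). Of 28 interferon response genes 4 were lower and 0 higher, with a median of -0.22, led by the transcription factor gene Irf8 (-0.81 ± 0.14). This count depended on human replicate H, since 16 were lower without that array and 15 without experiment H. It was 2 without any other single array except calf replicate I, and 2 without experiment G or I. With the experiment or the array stamp as a term it was 8 or 9.

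Cell cycle genes had few calls but leaned one way. Of 29 tested 3 were called lower and 1 higher (13.8% called, against 14.7% of all genes). The higher one was Ccnd2, a cyclin of early G1 (1.30 ± 0.10), the only one of the 29 with a difference above 0. Their median was -0.43, against -0.03 for all genes, and 17 of the 29 had groups that did not overlap, against 29% of all genes. The number called lower was 2 to 10 over the other fits. It was 5 without experiment G, 6 in the 6 arrays alone, 9 in the 12 arrays without LPS and 10 in the 6 arrays with the experiment as a term.

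The same sera were also compared in cells given LPS, on 6 other arrays. There 739 genes (6.27%) were called, 433 higher (3.67%) and 306 lower (2.6%). Of the genes called without LPS 345 were called in the same direction with LPS, which is 19.9% of the former and 46.7% of the latter, and 22 were called in the opposite direction. The change in the serum difference between the conditions, tested as an interaction, was called in 542 genes (4.6%). Of the 23 integrated stress response genes 17 were called higher in human serum with LPS, with a median of 0.92. For Ddit3 the values with LPS were 11.90, 12.01 and 11.92 in human and 10.51, 9.94 and 10.43 in calf serum. The difference of 1.66 ± 0.11 did not depart detectably from that without LPS (interaction adjusted p 0.274). For Nupr1, in contrast, they were 13.30, 13.42 and 13.25 against 12.96, 12.67 and 12.81. The sera were closer together than without LPS, at 0.51 ± 0.09 (interaction -1.73 ± 0.13, adjusted p 6.12e-09). Hilpda differed by 2.12 ± 0.14 with LPS (interaction adjusted p 0.548).

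Several inflammatory genes that LPS drives to high levels were no longer parted by serum. Cxcl2 read 12.27, 12.32 and 12.43 in human and 12.39, 12.09 and 12.32 in calf serum with LPS. The values overlapped, and the interaction was -2.50 ± 0.15 (adjusted p 3.75e-10). Ptgs2 read 12.19, 12.17 and 12.39 against 12.27, 12.30 and 12.38, likewise without a gap (interaction -3.57 ± 0.40). Tnf turned round. With LPS it read 11.03, 11.31 and 11.15 in human and 12.02, 11.89 and 12.11 in calf serum. It was thus lower in human serum by 0.85 ± 0.09 (-0.85, adjusted p 1.73e-06), where it had been higher without LPS, and the interaction was -1.60 ± 0.13 (adjusted p 2.81e-08). Il10 turned the other way, with 9.10, 8.96 and 8.86 against 8.44, 8.35 and 7.80 under LPS. There it was higher in human serum (0.78 ± 0.22, adjusted p 0.0323), and the interaction was 1.74 ± 0.31 (adjusted p 0.00115). Gpr34, lower in human serum without LPS, was higher with LPS (0.85 ± 0.26, adjusted p 0.048), with both means below the filter level. Of the genes lower in human serum without LPS, Sesn1 read 5.18, 5.84 and 6.02 against 4.92, 5.37 and 6.31 with LPS, which overlapped. Mertk was lower in human serum with LPS too (-0.92 ± 0.15).

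**Figure D5:**
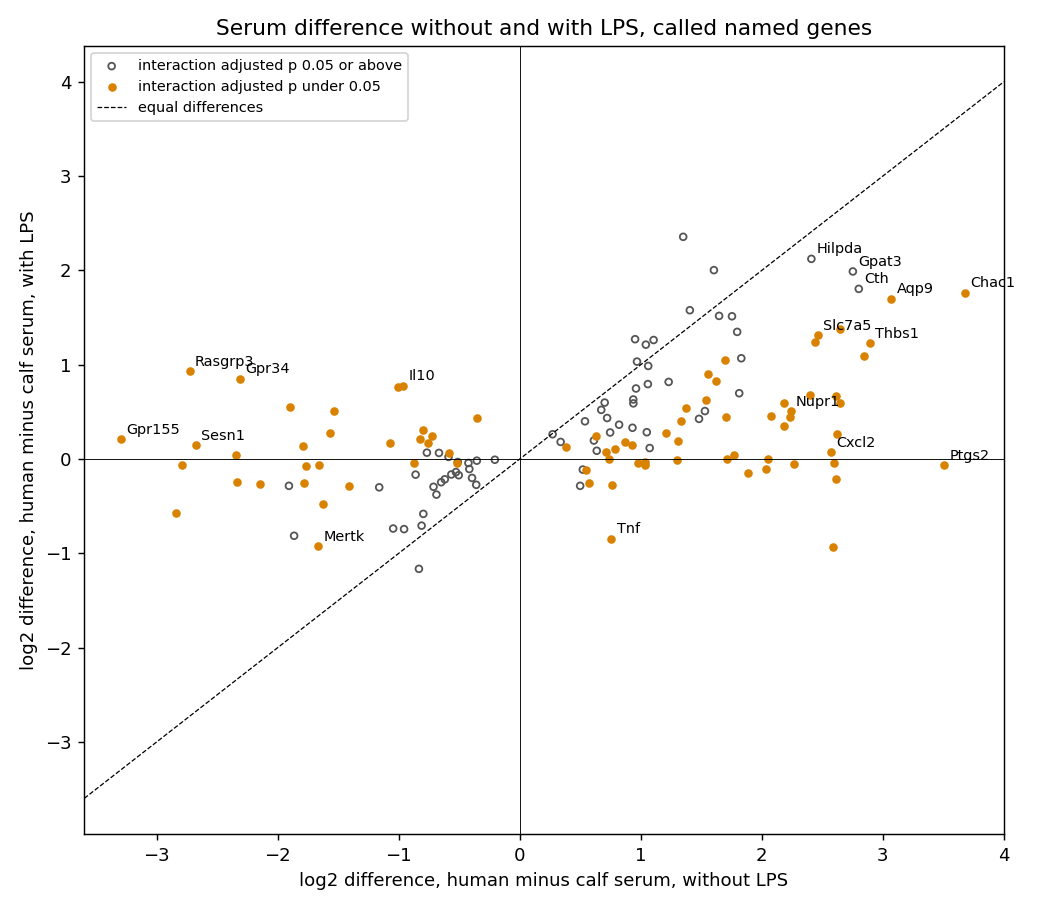
Each point is 1 of 145 genes chosen by the naming rule and called without LPS, with the log2 difference, human minus calf serum, without LPS on the horizontal axis and with LPS on the vertical axis; filled points, 81 of them, had a called interaction, and the dashed line marks equal differences. Hilpda (2.41 and 2.12) lies near the line, Cxcl2 and Ptgs2 lie near 0 on the vertical axis, and Tnf and Il10 have differences of opposite sign in the 2 conditions.

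Probe sets measure their targets with different efficiency, so levels were not compared between genes. Of the 30 largest differences 11 had a lower mean below the filter level, and their folds depend on how background was removed. The same holds for Olr1, Il1r2, Il10, P2ry1 and Vldlr. With 3 arrays per serum the number of arrays limits precision, and the median SE was 0.17.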

How the data were processed

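Total RNA from 24 mouse macrophage cultures was labelled with biotin and hybridised singly to Affymetrix arrays, per the labels' protocols. For each array the authors deposited log2 expression values, 1 for every probe set, made with Partek and GCRMA per the submitters' processing notes, which give no settings. GCRMA models background, which shapes values near the bottom of the scale. Of 45101 probe sets 34945 named 1 gene in the platform table. Probe sets above the median of all values (log2 5.08) on at least 3 arrays were kept, and the one with the highest mean stood for its gene, leaving 11785 genes. With limma 3.58.1 (R 4.3.3), 8 group means were estimated together from the 24 arrays, with trend and robust moderation, tested on simulated data first. Tests are two-sided, with Benjamini-Hochberg adjustment within a comparison. Promoters come from RefSeq's table (GRCm38.p6), searched with Python 3.11.15 and pandas 2.3.3, and figures use matplotlib 3.10.9.

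The comparison, its alternatives and the 42 gene lists, written from general knowledge, were chosen with earlier results of these data known. Genes were named if called with 1 sign in all 3 experiments and among the 15 largest in a direction, if among the 4 largest called in a list, or if fixed beforehand (20 genes, some of them not reported here). Of 139 genes given 34 are outside this rule and were chosen after their values were seen, to show a role or to name a small count. Of 137 other probe sets of genes under the rule 83 were called in the same direction and 0 in the opposite one. Alternatives were fewer arrays, centring, quantile normalization, other filters, other probe sets, no trend, the experiment or the array stamp as a term, and each array or experiment left out.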

Additional observations from a re-analysis of the deposited data

Results flagged for a closer look

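The results listed here are genes given in the report whose human minus calf serum difference itself changed with LPS, by limma's interaction term with adjusted p under 0.05. They number 75 of the 139 genes given, and for 73 of the 75 the difference was smaller in size with LPS than without it. Most genes were given because they differed without LPS, which favours a smaller difference in the other condition, so this share is a description. The exceptions were Tnf, which turned its sign (interaction -1.60), and Ptger2, which was further apart with LPS (1.24). Values are log2, difference with LPS minus difference without LPS, so that a negative value marks a gene higher in human serum without LPS whose excess shrank or turned.

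Among stress response and amino acid genes the interaction was -2.36 for Jdp2, -1.91 for Chac1, -1.75 for Slc1a4, -1.73 for Nupr1, -1.58 for Slc7a11, -1.15 for Slc7a5, -0.94 for Mthfd2, -0.84 for Yars, -0.78 for Psat1, -0.65 for Slc7a1 and -0.64 for Asns. Among prostaglandin, cytokine and chemokine genes it was -3.57 for Ptgs2, -2.50 for Cxcl2, -2.14 for Cxcl1, -2.05 for Cxcl3, -1.78 for Il1rn, -1.73 for Il1b, -0.31 for Ccl9, 0.66 for Ccl4, 1.74 for Il10 and 2.73 for Hpgd. The NF-kappaB feedback genes gave -1.10 for Nfkbiz, -1.07 for Zc3h12a and -1.02 for Nfkbie. The receptors of microbial products gave -0.93 for Cd14, -0.92 for Tlr2, 0.83 for Tlr3, 0.91 for Tlr7 and 1.15 for Tlr1.

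Growth signalling and cytoskeletal genes gave -1.84 for Met, -1.66 for Thbs1, -1.62 for Phlda1, -1.26 for Inhba, -1.26 for Maff, -1.21 for Dusp5, -1.12 for Dusp4, -1.04 for Zyx, -0.82 for Cnn2, -0.68 for Pmepa1, 0.42 for Atf3 and 0.65 for Tgfbr1. Other genes higher in human serum gave -3.52 for Cass4, -2.82 for Matn2, -2.64 for Abtb2, -2.32 for Lpar1, -2.05 for Gpr84, -1.95 for B3gnt5, -1.72 for Olr1, -1.71 for Mmp13, -1.37 for Aqp9, -1.31 for Ccnd2, -0.93 for Slc2a1, -0.79 for Slc39a14 and -0.25 for Sqstm1. Genes lower in human serum gave 3.66 for Rasgrp3, 3.50 for Gpr155, 3.16 for Gpr34, 2.83 for Sesn1, 2.45 for Slc46a3, 2.38 for Kif5c, 2.27 for Fam214a, 2.09 for Frmd4b, 1.94 for Zfyve28, 1.88 for Zfp395, 1.85 for Cd79b, 1.70 for P2ry1, 1.60 for Slc40a1, 1.25 for Ccr2, 1.24 for Sesn3, 1.12 for Cebpa, 1.03 for Stard4, 0.97 for Foxo3 and 0.74 for Mertk. Groups of 3 arrays are too small for a test of single outlying arrays.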

How the results depend on the processing

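The number of genes called between human and calf serum without LPS changed most when whole experiments were left out. Over the fits that left out an array or an experiment it ran from 494 to 734 higher and from 358 to 830 lower, against 837 and 894. The other fits, with fewer arrays, other scaling, other filters, other probe sets or another moderation, gave 643 to 886 higher and 679 to 1021 lower, and the array stamp as a term 908 and 1042. With the experiment as a replicate block 966 genes were higher and 1069 lower, and 1726 of the 1731 genes were called in both. In the 6 arrays alone, a choice made after seeing the data, the block gave 892 and 1123. The main fit did not pair arrays by letter, since the labels do not state the authors' model. Deviations from the group means correlated at 0.144 for G, 0.138 for H and 0.0037 for I. Between unlike letters the values ran from -0.174 to 0.0547. The counts of genes with the same sign in all experiments, and the naming rule, do compare arrays by letter. In the 24 arrays neither the block nor the array stamp changed a call of the 186 genes followed, and the block in the 6 arrays alone lost that of Il15. With the most variable probe set per gene 19 of the 186 lost their call and 2 turned sign, Hif1a (-0.044, from 0.71) and Tlr7 (0.017, from -0.79), as another probe set was read. Without experiment I 38 lost it, without H 27 and without G 21. The integrated stress response count stayed at 21 to 23 of 23, aminoacyl-tRNA synthetases at 11 to 13 higher and amino acid transporters at 9 to 11. The lowest difference in the stress response list was -0.12 with the most variable probe set per gene, so not every member stayed higher there. With arrays centred 1689 of the 1731 genes were called too and with quantile normalization, which called 1779 genes, 1637 were. Interactions of the genes listed above were followed only with centring, quantile normalization, other filters and the experiment as a term. Under these settings 363 of 374 values stayed on the same side of the threshold. They were not followed with an array or experiment left out, other probe sets, no trend or the array stamp as a term.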
